A study of Mus musculus with 8 samples.

Results

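The nuclear-encoded subunits of oxidative phosphorylation were followed across 8 bead arrays of mouse T cells. Members were all probes whose annotated symbol begins with the subunit stems Ndufa, Ndufb, Ndufc, Ndufs, Ndufv, Sdha to Sdhd, Uqcr, Cox4i, Cox5 to Cox8 and Atp5, without the assembly factors. They came to 99 of 25697 probes and 80 of 16593 named genes: 35 of complex I, 3 of complex II, 8 of complex III, 18 of complex IV and 16 of complex V. Of the 80 genes, 70 passed the detection filter and were compared, 66 were detected on all 8 arrays, and 9 were detected on none.

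The cells came from spleen and lymph nodes of male C57BL/6 mice in 4 recipient states. Naive mice were healthy and carried no graft. Mice of the other states bore tail skin grafts of BDF1 donors (C57BL/6 x DBA/2). Rejecting mice were untreated and taken on day 7, and early tolerant and tolerant mice had received a donor specific transfusion with the CD40L antibody MR-1 and were taken on days 21 and 100. All T cells, naive ones included, met bone-marrow derived dendritic cells of the donor in a culture of 20 to 21 hours and were then sorted into CD69+ and CD69- fractions. Each of the 8 groups had 1 array. Neither the number nor the age of the mice behind an array is given in the sources used here. Since the labels' account of the sort gives CD3+CD69+ for either fraction, the array titles decided which was which.

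The respiratory chain passes electrons from NADH through complex I, or from succinate through complex II, to ubiquinone, then through complex III and cytochrome c to complex IV, where oxygen is reduced. Complexes I, III and IV pump protons across the inner mitochondrial membrane, and complex V, the ATP synthase, makes ATP from their return. Resting T cells rely on this pathway for most of their ATP, and activated T cells enlarge their mitochondria while they also raise glycolysis. A small set of core subunits of complexes I, III, IV and V is encoded by mitochondrial DNA. No symbol of those genes was found among the annotated probes, so the account covers nuclear genes.

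The ring of the ATP synthase that turns with the proton flow is built from subunit c. In mouse and human, the genes Atp5g1, Atp5g2 and Atp5g3 encode the same mature subunit c behind different import sequences. Cox7a2l encodes a protein related to the complex IV subunit Cox7a2, and a role in joining complexes III and IV into a supercomplex has been described for it. Whether the protein has this role in the mouse strain of these T cells was not tested. The stretches upstream of these 4 gene starts are shown because the genes behaved differently between the fractions. Each holds the 250 bases before the start as RefSeq gives it on GRCm38.p6, on the minus strand in all 4. They lie at chr11:96075632-96075881, chr15:102671048-102671297, chr2:73911327-73911576 and chr17:83514334-83514583, in that order. Any stretch listed under these symbols on a further chromosome was not printed. Capitals mark the motifs searched on both strands: the NRF1 motif, which is GCGCA followed by its reverse complement, the ETS motif CCGGAAG, the GC box GGGCGG, the E-box CACGTG and the CCAAT box.
Atp5g1: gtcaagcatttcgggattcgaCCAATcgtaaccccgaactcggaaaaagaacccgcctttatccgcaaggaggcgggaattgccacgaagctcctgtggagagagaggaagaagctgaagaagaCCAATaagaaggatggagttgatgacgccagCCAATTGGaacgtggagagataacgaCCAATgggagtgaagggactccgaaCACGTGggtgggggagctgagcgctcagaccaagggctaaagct
Atp5g2: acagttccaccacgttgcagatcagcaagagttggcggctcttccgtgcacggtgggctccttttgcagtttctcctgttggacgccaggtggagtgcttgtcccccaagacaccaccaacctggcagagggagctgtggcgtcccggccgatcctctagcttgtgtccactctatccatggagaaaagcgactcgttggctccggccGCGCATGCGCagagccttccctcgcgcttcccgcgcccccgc
Atp5g3: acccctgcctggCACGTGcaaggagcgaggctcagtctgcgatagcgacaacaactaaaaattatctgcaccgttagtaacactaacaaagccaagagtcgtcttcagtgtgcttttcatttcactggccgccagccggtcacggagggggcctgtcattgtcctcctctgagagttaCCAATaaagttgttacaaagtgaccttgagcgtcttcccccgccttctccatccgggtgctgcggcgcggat
Cox7a2l: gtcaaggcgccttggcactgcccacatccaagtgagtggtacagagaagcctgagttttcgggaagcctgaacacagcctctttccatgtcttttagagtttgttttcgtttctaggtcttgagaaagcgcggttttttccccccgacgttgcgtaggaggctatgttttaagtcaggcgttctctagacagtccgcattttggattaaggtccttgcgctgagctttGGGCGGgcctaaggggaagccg
Atp5g1 holds an E-box and several CCAAT boxes, of which an adjoining pair runs on opposite strands and overlaps. Atp5g2 holds the NRF1 motif and Atp5g3 an E-box and a CCAAT box. The window of Cox7a2l holds a GC box. These matches describe the letters of the windows and show no binding.

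Levels are given as normalized signal, the background-corrected and quantile-normalized probe brightness in arbitrary units. Differences are log2 of CD69+ over CD69-, averaged over the 4 states with its standard error (SE), and positive values are higher in CD69+ cells. A gene passed at an adjusted p under 0.05 in limma's moderated linear model with state as a block, adjusted by the Benjamini-Hochberg method over the 7403 genes tested. The 4 states stand in for replicates, so these p-values measure how steady a difference was over the states and not the spread between animals. In lists of 4 signals the order is always naive, early tolerant, tolerant and rejecting. Signals of different probes are not on a common scale and were not set against each other.

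Each array detected 9593 to 10308 probes (37.3% to 40.1%), and in every state the CD69+ array had the brighter mean before normalization. Transcripts listed as markers of dendritic and other myeloid cells differed between the fractions. Of 23 such marker genes tested, 21 were higher in CD69+ cells and none lower, with a median difference of 2.16. Over all genes tested, 35.2% were higher and 38.0% lower, and the other marker counts below are to be read against these shares. The 21 include Batf3, Ccl22 and Tyrobp, detected on no CD69- array, and Cd80, detected on 1. The direction of these genes was largely fixed by the detection filter. Their summed signal ran from 23108 to 77705 on CD69+ arrays and from 16285 to 25171 on CD69- arrays, with Itgax, Itgam and Flt3 not detected on any array. The listed genes did not move as one over the states. On CD69+ arrays, Cd80 (347.5, 538.4, 532 and 712.8) and Batf3 (121.8, 121.1, 166.5 and 476.6) were highest in rejecting cells. Cd74 (3502, 7706, 9303 and 1392) was lowest there. Which cells made these transcripts was not tested. Of 12 pan-T-cell genes, 1 was higher and 9 were lower, with sums of 100007 to 117922 on CD69+ arrays against 151113 to 158073 on the others. All 12 of these T-cell genes were detected. Among the other markers tested, 1 of 2 B-cell, 1 of 5 NK-cell and 1 of 3 granulocyte genes were higher in CD69+ cells. The 1 erythroid gene was lower, as were 1 B-cell, 3 NK-cell and 2 granulocyte genes. Blk, the B-cell gene that was higher, was detected on no CD69- array, and Hba-a1, the erythroid gene, on no CD69+ array. The part of other cells in the subunit differences was not tested. In bulk RNA, fewer cells of a type and less RNA per cell cannot be told apart.

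CD69 marks recently stimulated T cells, and the first comparison asked how the subunits differed between CD69+ and CD69- cells of the same cultures. Most were higher in the CD69+ cells. Of the 70 genes compared, 51 rose (72.9%) and 6 fell, while over all genes tested 35.2% rose and 38.0% fell. The 51 include Ndufab1, Cox7a1 and Ndufb4, which passed the detection filter only through CD69+ arrays. The direction of these 3 was largely fixed by the filter, so their folds are given below as lower bounds without a p-value. Cox7b, detected on 4 CD69+ arrays and 1 CD69- array, would not have passed the filter on its CD69- arrays. Its direction was largely fixed too, and no p-value is given for it. The median difference was 0.60 over the subunits and -0.04 over all genes. It was 0.56 with the 3 genes not detected in the CD69- cells at their lower bound. A change of at least 1.5-fold was seen in 36 genes that rose and 3 that fell, against 27.5% and 27.7% of all genes. The 36 include Ndufab1 and Cox7a1, whose lower bounds of 1.48-fold and 1.46-fold fall short of that line. The 4 CD69+ signals lay wholly above the 4 CD69- signals for 49 genes and wholly below for 6, against 31.7% and 34.4%. By pair, 55 genes were higher in CD69+ cells in all 4 states and 7 were lower in all 4, against 37.1% and 40.4%. Ndufab1, Cox7a1 and Cox7b are among the 49, and these genes and Ndufb4 are among the 55.

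**Figure D1:**
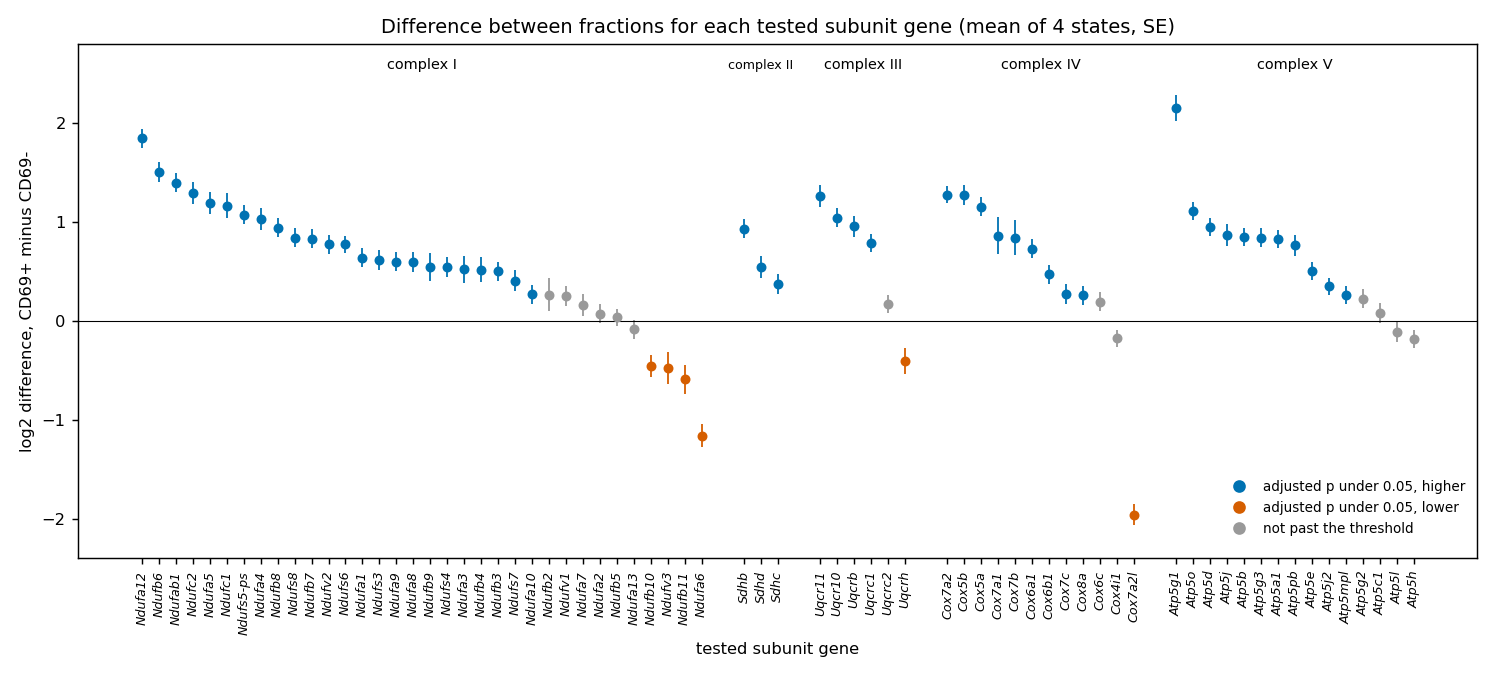
Each point is 1 of the 70 tested subunit genes, ordered by complex on the x axis, with its log2 difference between CD69+ and CD69- cells on the y axis (mean of 4 states, bars 1 SE). Of the points, 51 are higher and 6 lower at an adjusted p under 0.05, with Atp5g1 at 2.15 highest and Cox7a2l at -1.96 lowest.

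Rises were found in every complex. In complex I, 24 of 34 genes rose and 4 fell (median 0.57), and all 3 complex II genes rose (median 0.54). Complex III had 4 rises and 1 fall among 6 genes (median 0.87), complex IV 9 rises and 1 fall among 12 (median 0.60), and complex V 11 rises and no fall among 15 (median 0.77). The 24 rises of complex I include Ndufab1 and Ndufb4, and the 9 of complex IV include Cox7a1 and Cox7b. The direction of these genes was largely fixed by the detection filter. Of the 57 genes that passed, 47 did so in the same direction under all alternative ways of processing, 12 in number, of which 11 were distinct. The deposited normalized values gave the same results as quantile normalization without background correction. The other ten were Ndufa10, Ndufs7, Ndufb11, Ndufv3, Sdhc, Uqcrh, Cox7c, Cox8a, Atp5j and Atp5mpl, and none of the 57 changed direction.

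Complex I takes electrons from NADH at the tip of its peripheral arm and hands them to ubiquinone near the membrane. Among its catalytic core subunits Ndufs3, Ndufs7, Ndufs8, Ndufv1 and Ndufv2, 4 of 5 rose (median 0.62). Ndufv1 carries the flavin that accepts the electrons of NADH, and it was the one that missed the threshold. Its signals were 8470, 10170, 8059 and 8805 on the CD69+ arrays and 7129, 7526, 7026 and 8059 on the CD69- arrays. It was higher in CD69+ cells in each state while the groups overlapped (0.25, SE 0.10, adjusted p = 0.0509), and 6 of the 11 distinct alternatives put it past the threshold. Its partner in the NADH module, the iron-sulphur protein Ndufv2, had signals of 9632, 9211, 9931 and 9359 in CD69+ and 5599, 5223, 5479 and 6032 in CD69- cells. The Ndufv2 groups lay apart, a 1.71-fold rise (0.77, SE 0.09, adjusted p = 0.000313). Ndufs3, Ndufs7 and Ndufs8 belong to the part of the arm that reaches the ubiquinone site. Ndufs8, an iron-sulphur protein, rose by 0.84 (SE 0.10, adjusted p = 0.000277) and Ndufs3 by 0.62 (SE 0.10, adjusted p = 0.00118). Ndufs7 rose by 0.41 (SE 0.10, adjusted p = 0.0108), and without the naive pair it missed the threshold at 0.33 (adjusted p = 0.0535). Ndufs1, the largest iron-sulphur subunit, was not detected on any array.

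The other 29 genes grouped with complex I by symbol are accessory subunits, which surround the core and are needed for its assembly and stability, apart from Ndufa4 and the pseudogene symbol Ndufs5-ps. Of them, 20 rose, with Ndufab1 and Ndufb4 counted, and 4 fell (median 0.55). Ndufa12, an accessory subunit of the peripheral arm, showed the largest rise of the complex. Its signals were 5845, 6080, 6411 and 6346 on CD69+ and 1766, 1796, 1656 and 1651 on CD69- arrays. No CD69+ array came near any CD69- array, and the change was 3.59-fold (1.85, SE 0.10, adjusted p = 1.3e-05). Ndufb6, of the membrane arm, measured 11830, 10430, 11230 and 13630 in CD69+ and 4082, 4203, 4063 and 4203 in CD69- cells. It rose 2.83-fold (1.50, SE 0.10, adjusted p = 2.9e-05), its 4 CD69- values lay close together, and its second probe gave 1.40. Ndufc2, another membrane-arm subunit, measured 13090, 9763, 12580 and 14300, against 4865, 4865, 4664 and 5735 in CD69- cells. The lowest CD69+ value, on the early tolerant array, was still well above every CD69- value (1.30, SE 0.11, adjusted p = 6.91e-05).

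Ndufab1 is the mitochondrial acyl carrier protein, which also serves fatty acid and lipoic acid synthesis. Its probe was detected on all 4 CD69+ arrays, with signals of 119.8, 113, 101 and 134, and on no CD69- array. The rise was at least 1.48-fold, taken against the lowest signal detected on each CD69- array. Ndufa6 binds an acyl carrier protein within the complex, and it moved the other way. Its signals were 8895, 8376, 10060 and 12210 in CD69+ and 22390, 21760, 20190 and 23190 in CD69- cells. The groups lay apart in every state, a fall of 2.23-fold (-1.16, SE 0.12, adjusted p = 0.000134).

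The other complex I genes that fell changed less. Ndufb10 and Ndufb11 belong to the membrane arm, and Ndufv3 sits beside the NADH-binding subunits. Ndufb10 measured 501, 433, 431 and 446 in CD69+ and 562, 616, 617 and 694 in CD69- cells, and all 4 CD69- values were the higher ones (-0.46, SE 0.11, adjusted p = 0.0081). Ndufb11 measured 115, 102, 130.5 and 181, against 201, 189.6, 192 and 194 in CD69- cells, with the rejecting CD69+ array nearest to the CD69- arrays (-0.59, SE 0.15, adjusted p = 0.00981). Under median scaling, which replaces the quantile step, Ndufb11 missed the threshold at -0.39 (adjusted p = 0.0503). Ndufv3 measured 6932, 8295, 7841 and 8710, against 13360, 10650, 11800 and 8789 in CD69- cells, and its fractions nearly met in rejecting cells (-0.48, SE 0.16, adjusted p = 0.03). The Ndufv3 call was lost without the naive pair (-0.32, adjusted p = 0.114), the early tolerant pair (-0.52, adjusted p = 0.0636) or the tolerant pair (-0.44, adjusted p = 0.0909). It was also lost with median scaling (-0.32, adjusted p = 0.0855) and without the detection filter (adjusted p = 0.0623). Its 3 probes gave -1.32, -0.48 and -0.37.

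Further accessory rises included Ndufa5 (1.19, signals of 7469 to 8752 against 3074 to 3983 in CD69- cells) and Ndufc1 (1.17, 6533 to 9796 and 3476 to 4084). Ndufa4 (1.03, adjusted p = 0.000181) is grouped here by its symbol, although its protein is now regarded as a subunit of complex IV. A probe annotated to the pseudogene Ndufs5-ps also rose (1.07, adjusted p = 8.61e-05), and whether it reads a functional gene of like sequence was not tested. Ndufa13, Ndufb5, Ndufa2, Ndufa7 and Ndufb2 did not pass, with differences from -0.09 to 0.26. Ndufb4 was detected on 3 CD69+ arrays and no CD69- array, its signals overlapped, and its rise was at least 1.12-fold. Ndufb2 passed without the tolerant pair (0.44, adjusted p = 0.0313).

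Complex II is succinate dehydrogenase, which is also an enzyme of the tricarboxylic acid cycle. The flavoprotein Sdha was not analysed here, and the other genes rose. Sdhb, the iron-sulphur subunit, measured 2649, 2619, 2691 and 2805 in CD69+ and 1239, 1482, 1442 and 1497 in CD69- cells. The fractions lay far apart in every state (0.93, SE 0.09, adjusted p = 0.000149). The membrane anchor Sdhd measured 465, 382, 427 and 386 in CD69+ cells, against 343, 209, 323 and 282 in CD69- cells, with the early tolerant CD69- array the lowest of all (0.54, SE 0.11, adjusted p = 0.00452). The other anchor, Sdhc, measured 2187, 2783, 2491 and 2773 in CD69+ cells, against 1912, 2154, 1880 and 1929 in CD69- cells, and its groups came closest, since the naive CD69+ value barely exceeded the early tolerant CD69- value (0.37, SE 0.10, adjusted p = 0.0118). Averaged with a second probe that was detected on no array, Sdhc missed the threshold (0.16, adjusted p = 0.118).

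Complex III passes electrons from ubiquinol to cytochrome c. Its 2 core proteins differed in call: Uqcrc1 rose by 0.79 (SE 0.09, adjusted p = 0.000284), while Uqcrc2 gave 0.17 (SE 0.09, adjusted p = 0.136), a difference between the genes that was not tested. The Uqcrc2 signals overlapped, with 10800 to 12140 on CD69+ and 9113 to 11330 on CD69- arrays. Uqcr11, Uqcr10 and Uqcrb are small subunits. Uqcr11 measured 10320, 8710, 11330 and 9610 in CD69+ and 3970, 4391, 4106 and 4156 in CD69- cells, with no overlap (1.26, SE 0.11, adjusted p = 8.31e-05). Uqcr10 rose by 1.04 (SE 0.10, adjusted p = 0.00011), with 1.00 at its second probe, and Uqcrb by 0.96 (SE 0.10, adjusted p = 0.00021).

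Uqcrh, the acidic hinge protein of complex III, thought to aid the docking of cytochrome c, was the one that fell. Its signals were 19500, 18790, 28230 and 25170 in CD69+ and 29400, 29400, 28230 and 32550 in CD69- cells. The fractions were equal in tolerant cells and overlapped between states (-0.40, SE 0.13, adjusted p = 0.0284). The call was lost without the naive pair (-0.34, adjusted p = 0.113), the early tolerant pair (-0.32, adjusted p = 0.113) or the rejecting pair (-0.41, adjusted p = 0.0532). Uqcrfs1, the Rieske iron-sulphur protein, and Uqcrq were not detected on any array.

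Complex IV hands the electrons to oxygen. Cox5a and Cox5b are nuclear subunits that lie against its mitochondrially encoded core. Cox5b measured 22390, 19170, 20920 and 19230 in CD69+ and 7808, 9015, 8722 and 8256 in CD69- cells, a 2.42-fold rise with no overlap (1.27, SE 0.11, adjusted p = 6.36e-05). Cox5a measured 16800, 12400, 15090 and 17140 in CD69+ cells, against 7224, 6207, 6283 and 7758 in CD69- cells, with the early tolerant arrays lowest in both fractions (1.16, SE 0.09, adjusted p = 6.05e-05). Cox4i1, the common isoform of subunit 4, measured 17980, 19500, 21200 and 21020 in CD69+ cells, against 21200, 22390, 22960 and 23490 in CD69- cells. Its groups overlapped and it did not pass (-0.18, SE 0.09, adjusted p = 0.108).

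Cox7a2 encodes the broadly expressed isoform of the small subunit 7a. It measured 593, 559.7, 606 and 556 in CD69+ and 250.1, 222, 258 and 228 in CD69- cells and rose 2.42-fold (1.27, SE 0.09, adjusted p = 3.06e-05). Its relative Cox7a2l showed the largest fall of all subunits. This is a fall in RNA signal, and neither the protein nor supercomplexes were measured. The signals of Cox7a2l were 5133, 5190, 6274 and 7485 in CD69+ and 22510, 21480, 24330 and 24330 in CD69- cells. Every CD69+ value lay far below every CD69- value, and the rejecting CD69+ value was the highest of its fraction. The fall was 3.89-fold (-1.96, SE 0.11, adjusted p = 1.52e-05).

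Some subunits of complex IV have tissue isoforms. Cox7a1, the heart and skeletal muscle isoform of subunit 7a, was detected on all 4 CD69+ arrays with signals of 101, 88.1, 130.1 and 150.3 and on no CD69- array. Its rise was at least 1.46-fold. Cox7b was detected on 4 CD69+ arrays (119.8, 92.5, 129 and 148) and on 1 CD69- array. Its difference of 0.84 (SE 0.17) rests mostly on CD69- signals below detection. The muscle isoform Cox8b, the testis isoforms Cox6b2, Cox7b2 and Cox8c and the lung isoform Cox4i2 were not detected on any array. The muscle isoform Cox6a2 was detected on 1 CD69+ array and was not tested, while Cox6a1, its broadly expressed counterpart, rose by 0.73 (SE 0.10, adjusted p = 0.000544). Cox6b1 rose by 0.47 (adjusted p = 0.00376), and Cox6c did not pass (0.19, adjusted p = 0.115). Cox7c (0.27, adjusted p = 0.0488) and Cox8a (0.26, adjusted p = 0.0469) passed narrowly. Without any one pair both missed the threshold, Cox7c at 0.20 to 0.33 (adjusted p = 0.0555 to 0.149) and Cox8a at 0.21 to 0.32 (adjusted p = 0.0532 to 0.135). Both also missed it without state as a block, Cox7c at an adjusted p of 0.0569 and Cox8a at 0.0859, and with every probe taken singly (0.054 and 0.0526). Cox7c missed it without the detection filter as well (adjusted p = 0.0525).

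In complex V, the catalytic head is a ring of the alpha subunit Atp5a1 and the beta subunit Atp5b around the gamma shaft Atp5c1. Atp5a1 measured 1547, 1485, 1703 and 1468 in CD69+ and 928, 776, 1003 and 793 in CD69- cells (0.83, SE 0.09, adjusted p = 0.00022). Atp5b measured 56190, 55190, 52170 and 56050 in CD69+ cells, against 28520, 30270, 30270 and 33010 in CD69- cells (0.85, SE 0.09, adjusted p = 0.000202). Neither gene's groups overlapped, and both were higher in CD69+ cells in every state. Atp5c1 measured 11040, 13090, 10490 and 12870 in CD69+ cells, against 11090, 10730, 11080 and 11940 in CD69- cells, its groups overlapped, and it did not pass (0.08, SE 0.10, adjusted p = 0.516). The delta subunit Atp5d of the central stalk rose by 0.95 (SE 0.09, adjusted p = 0.000112). Atp5o, the part of the outer stalk that confers sensitivity to oligomycin, rose by 1.11 (SE 0.09, adjusted p = 5.5e-05), from 417 to 471 on CD69- arrays to 923 to 1014 on CD69+ arrays. Atpif1, the inhibitor that stops the enzyme from running backwards and is not counted among the members, rose by 0.76 (SE 0.10, adjusted p = 0.000463).

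Atp5g1 showed the largest rise among all subunits. Its signals were 17020, 14640, 16740 and 14740 in CD69+ and 3492, 3808, 2965 and 4011 in CD69- cells. All 4 CD69+ values stood far above all 4 CD69- values, a 4.44-fold rise (2.15, SE 0.13, adjusted p = 2.13e-05). Atp5g3 measured 58910, 54440, 49150 and 55400 in CD69+ cells, against 30270, 28770, 31510 and 30880 in CD69- cells, also without overlap (0.84, SE 0.10, adjusted p = 0.000286). Atp5g2 measured 4113, 4193, 4464 and 5053 in CD69+ cells, against 3673, 3631, 3423 and 4579 in CD69- cells. Its groups overlapped because the rejecting CD69- value exceeded most CD69+ values, and it did not pass (0.22, SE 0.09, adjusted p = 0.0669). Atp5g2 passed with median scaling (0.34, adjusted p = 0.0198) and with the deposited normalized values (0.22, adjusted p = 0.041).

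The differences between related genes were compared pair by pair over the 4 states. The difference of Atp5g1 exceeded that of Atp5g3 by 1.31 on the log2 scale (SD 0.39, n = 4 states, range 1.02 to 1.86) and that of Atp5g2 by 1.93 (SD 0.22, range 1.73 to 2.12). Atp5g3 exceeded Atp5g2 by 0.62 (SD 0.24, range 0.26 to 0.80), and Cox7a2 exceeded Cox7a2l by 3.23 (SD 0.19, range 2.99 to 3.38). In each of these 4 comparisons the order was the same in all 4 states. The exact 2-sided permutation test over states gave p = 0.125 in each (adjusted over the 4 comparisons, 0.125), the smallest value that 4 states allow. The pairs include the genes with the largest rise and the largest fall, so their sizes describe genes known to stand out.

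**Figure D2:**
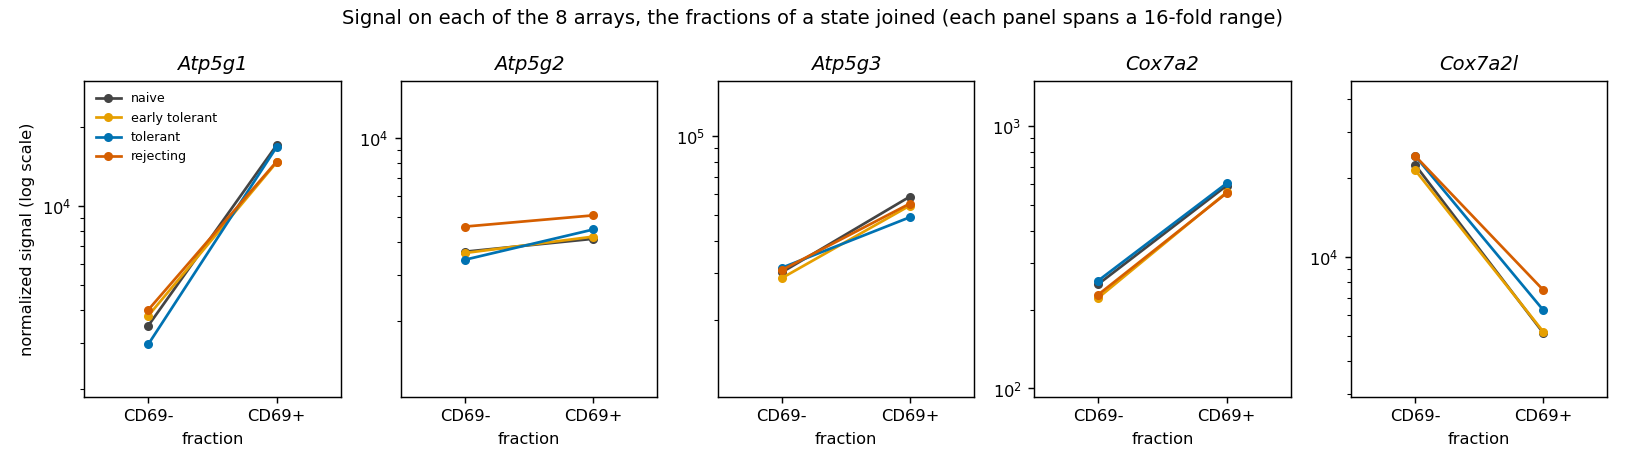
Normalized signal of the 3 subunit c genes and of Cox7a2 and Cox7a2l on each of the 8 arrays, on log y axes that each span the same fold range, with a line joining the CD69- and CD69+ arrays of a state. Levels cannot be set against each other between panels. The lines climb most for Atp5g1, less for Cox7a2, then Atp5g3, little for Atp5g2, and descend for Cox7a2l in all 4 states.

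The remaining complex V genes were mostly of the membrane part and the outer stalk. Atp5pb, of the outer stalk, rose by 0.77 (adjusted p = 0.000631), the small Atp5e of the central stalk by 0.50 (adjusted p = 0.00203) and Atp5j2 of the membrane part by 0.35 (adjusted p = 0.0114). Atp5mpl passed at 0.26 (adjusted p = 0.0358) and missed the threshold without any one pair, at 0.22 to 0.28 (adjusted p = 0.0714 to 0.107). Atp5h (-0.18, adjusted p = 0.109) and Atp5l (-0.11, adjusted p = 0.367) did not pass, and Atp5k was not detected on any array. For 11 subunit genes several probes were detected, and for 10 of them all those probes pointed the same way. The exception was Atp5j, of the outer stalk, whose brighter probe rose by 0.87 (adjusted p = 0.000378) while another gave -0.05 (adjusted p = 0.665).

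Within each state the same comparison rests on 1 array per fraction, so it gives values and no test. The median difference over the 70 subunits was 0.61 in naive, 0.50 in early tolerant, 0.74 in tolerant and 0.64 in rejecting cells. In naive cells, 36 genes were at least 1.5-fold higher and 5 at least 1.5-fold lower in the CD69+ fraction, against 28.7% and 29.2% of all genes. The early tolerant pair had 32 and 4 (background 27.9% and 29.7%), the tolerant pair 39 and 3 (29.0% and 28.6%), and the rejecting pair 37 and 3 (26.4% and 26.8%). All 4 counts of higher genes include Ndufab1, which was not detected in CD69- cells. The order of the 4 medians was not tested. Dendritic and myeloid markers differed by a median of 1.69 in naive, 2.33 in early tolerant, 2.56 in tolerant and 1.11 in rejecting pairs, and their part in the subunit values was not tested. Atp5g1 differed by 2.28, 1.94, 2.50 and 1.88 in the 4 pairs, and Cox7a2l by -2.13, -2.05, -1.96 and -1.70. Both kept their direction in every pair, and the rejecting pair gave the smallest size for each.

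**Figure D3:**
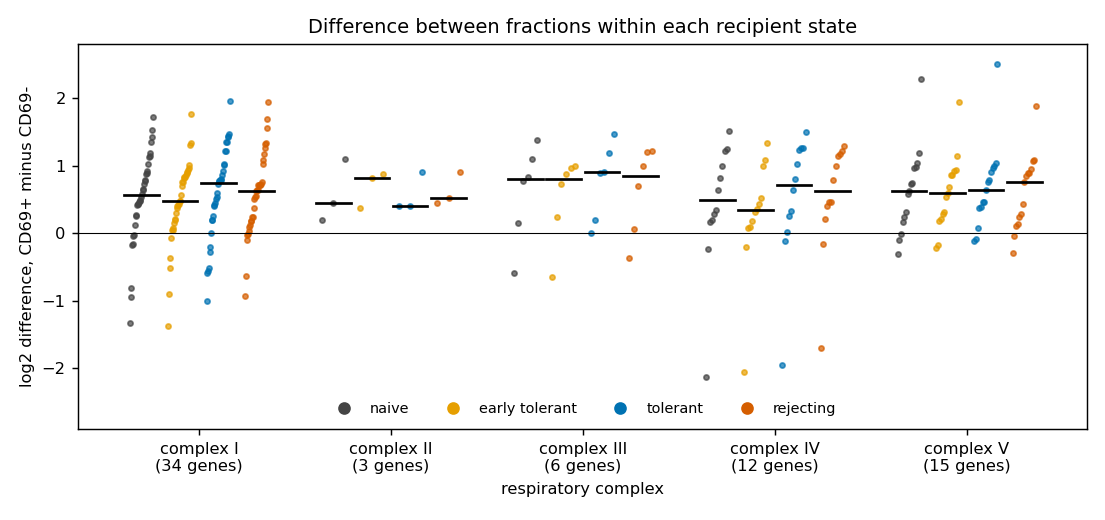
Log2 difference between the CD69+ and CD69- arrays of each recipient state (y axis) for the tested genes of each complex (x axis), with a point per gene and a bar at the median. The median lies above 0 in every complex and state; over all 70 genes it was 0.50 to 0.74.

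The second question was whether the subunits differed between recipient states within a fraction, the comparison in which the study sought tolerance and rejection genes. Each difference again rests on 1 array per side and carries no test, and those against naive cells share the naive array. A 1.5-fold difference from naive in at least 1 state was reached by 2 of 70 subunits among CD69+ arrays, against 22.6% of all genes. Among CD69- arrays it was also reached by 2, against 14.3%. The median size of the difference, regardless of sign, was 0.08 to 0.17 over the subunits in the 8 comparisons made and 0.15 to 0.23 over all genes, and it was smaller for the subunits in each. Brightness differs between the subunits and the average gene, and its part in this was not tested.

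In CD69+ cells, no subunit passed 1.5-fold between tolerant and naive mice (background 6.7% higher and 4.48% lower) or between early tolerant and naive mice (4.69% and 3.31%). With median scaling the second count was 6, and with every probe taken singly the first was 1. The complex I membrane-arm subunits Ndufb11 and Ndufb9 passed between rejecting and naive mice, with 0.66 and -0.59 (background 6.59% and 5.81%). Neither passed without background correction, with the deposited normalized values or with an offset of 50. Ndufb9 was at -0.58 in early tolerant cells, just short of 1.5-fold. Ndufb9 measured 687, 459, 613 and 457 on the CD69+ arrays, highest in naive and tolerant cells. Ndufb2, also of the membrane arm, was 0.75 higher in rejecting than in tolerant cells (background 7.39% higher and 8.16% lower). Its CD69+ signals were 421, 297, 299.6 and 502, high in naive and rejecting cells and low in the tolerant states.

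In CD69- cells, no subunit passed between tolerant and naive mice (background 3.23% and 3.0%). Sdhd was 0.72 lower in early tolerant than in naive cells (background 1.95% higher and 2.4% lower), which fell short of 1.5-fold without background correction and with the deposited values. Ndufv3 was 0.60 lower in rejecting than in naive cells (background 3.67% and 4.42%), which fell short with the probes of a gene averaged. Between rejecting and tolerant mice, Cox7a1 passed the line (background 4.51% and 5.62%), but it was detected on neither array and no fold is given.

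**Figure D4:**
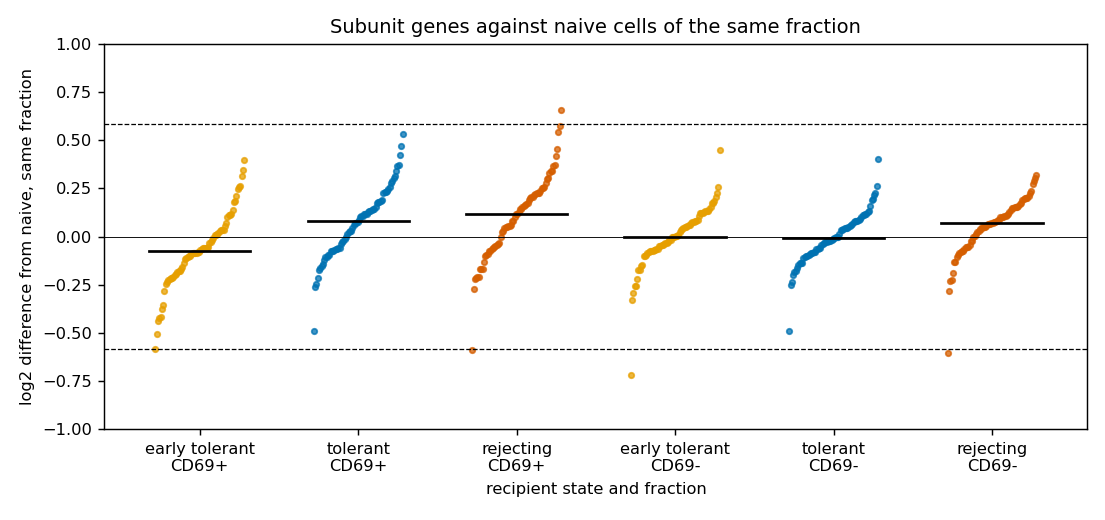
Log2 difference from the naive array of the same fraction (y axis) for the 70 tested subunit genes in each of the other recipient states and fractions (x axis); bars are medians and dashed lines mark 1.5-fold. On each side of the naive level few points reach the dashed lines, 2 genes among CD69+ and 2 among CD69- arrays.

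The upstream stretches of 65 of the 80 subunit genes could be matched to RefSeq, and a gene counted if any of its stretches held the motif. The NRF1 motif was found in 3 of these 65 genes (4.62%), against 2.03% of 6120 tested genes and 0.877% of 27025 genes in all. These 3 were Atp5g2, Atp5k and Cox6a1, of which Cox6a1 rose. The 65 include genes that were not tested, such as Atp5k, while the 6120 hold tested genes only. The ETS motif was found in 12 (18.5%), against 17.5% and 7.83%. The GC box was found in 25 (38.5%), against 64.7% and 35.4%. The E-box was found in 6 (9.23%), against 10.3% and 6.86%, and the CCAAT box in 28 (43.1%), against 41.6% and 37.5%. No test was run on these shares, and a missing match says only that the letters are not in the window.

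Other sets of companion genes act beside the subunits, and their counts are to be read against the same 35.2% and 38.0%. Of 35 assembly factors tested, 18 rose and 7 fell (median 0.29). Lrpprc, which stabilises mitochondrial messenger RNAs, rose by 1.70 (adjusted p = 2.82e-05) and the complex I assembly factor Ndufaf4 by 1.69 (adjusted p = 7.76e-05). Surf1, needed for complex IV assembly, fell by 1.31 (adjusted p = 8e-05). Of 15 genes for electron carriers and ubiquinone synthesis, 12 rose and none fell (median 0.76). Cyc1, the cytochrome subunit of complex III whose symbol lies outside the stems used, rose by 1.65 (adjusted p = 2.7e-05). Somatic cytochrome c, Cycs, rose by 0.59 (adjusted p = 0.0025). Coq7, of ubiquinone synthesis, rose by 2.43 (adjusted p = 1.16e-05) and was detected on 4 CD69+ and 2 CD69- arrays.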

How the data were processed

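Total RNA was hybridised to Illumina MouseRef-8 arrays and processed with BeadStudio 3.1.3, which is named in the submitters' processing notes. The deposited non-normalized table holds the mean bead intensity and the detection p-value of each probe, per the file headers. A normalized intensity that the authors deposited as series matrix, by a method that the sources do not give, served to name probes and as an alternative. Printed identifiers of the non-normalized values were out of register. Each of the 25697 rows matched 1 series matrix row through its quantile-normalized values on the 8 arrays (largest log2 distance 0.000597), and 20106 (78.2%) carried another printed identifier, 84 of the 99 member probes among them. Of all probes, 23978 had 1 gene symbol and 1719 had none or several.

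Function neqc of limma 3.58.1 under R 4.3.3 gave background-corrected, quantile-normalized log2 values, with detection p-values in place of negative controls and an offset of 16, which shrinks fold changes of dim genes. The probe brightest on average stood for its gene, which was tested if detected (p under 0.01) on at least 2 arrays, which left 7403 genes. Fractions were compared with limma, 2-sided, with recipient state as a block (3 residual degrees of freedom). The pairing comes from the design, since both fractions of a state were sorted from 1 culture. Deviations from the fraction means correlated within states by 0.273 (naive), 0.209 (early tolerant), 0.296 (tolerant) and 0.345 (rejecting). Folds marked "at least" use, for each array, the lowest detected signal (62.68 to 80.02 over the arrays) or the probe's own if higher. State comparisons have 1 array per group, so they have no replicate check and the number of arrays limits precision.

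Members and lists were chosen with earlier results of these data known, and by the rule on named genes the text covers up to 4 rises and 4 falls per complex, core catalytic and tissue-specific members, members past 1.5-fold between states, undetected members, and up to 4 genes each way from companion lists. Other subunits and some companion genes were added after their values were seen. Symbols beginning with Sdhaf were left out as assembly factors together with Ndufaf, 12 probes in all. The fitting procedure was tested on simulated data. The alternatives changed the background correction, scaling, offset, detection filter, probe summary and block, or left out a pair of arrays. Upstream sequences are RefSeq's on GRCm38.p6.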

Additional observations from a re-analysis of the deposited data

Results flagged for a closer look

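Among the differences between fractions in the 4 states, 4 of 70 tested subunits had 1 state far from the others. Chance gives such a gap in about 1 in 20 genes. Cox6a1 differed by 0.52 in the early tolerant pair and by 0.79 to 0.81 in the others. Cox7b differed by 0.18 in the early tolerant pair and by 1.00 to 1.17 in the others. It was detected on 1 CD69- array, so most of these differences rest on CD69- signals below detection and the gap cannot be read as a difference between states. Sdhd differed by 0.87 in the early tolerant pair and by 0.40 to 0.45 in the others, with the low value on the CD69- array. Ndufab1 differed by 1.55 in the rejecting pair and by 1.34 to 1.35 in the others. Its detected CD69+ signal was highest in rejecting cells, at 134.1 against 100.9 to 119.8 in the others. Its CD69- signals were below detection in every state, so each difference has an undetected side and the gap cannot be read as a difference between states.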

How the results depend on the processing

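The replicate block, here the recipient state, changed the count of subunits that rose from 51 to 50 when left out and kept 6 falls; over all genes the counts without it were 2531 and 2776. The deposited values and quantile normalization without background correction coincided, which left 11 distinct alternatives. Over the other alternatives on all 8 arrays, 50 to 59 subunits rose and 4 to 7 fell, the highest counts being those over 84 probes taken singly. Leaving out a pair of arrays gave 46 to 48 rises and 4 to 5 falls, with medians of 0.58 to 0.65. Median scaling moved the median of the subunits from 0.60 to 0.70 and that of all genes from -0.04 to 0.10, so the subunits exceeded all genes by 0.60 instead of 0.64. It also moved the split over all genes from 2607 higher and 2816 lower to 2962 and 2374, gave the subunits 57 rises and 4 falls, and turned Atp5l from -0.11 to 0.0303, neither past the threshold. It put 6 more subunits past the threshold: Atp5g2, Ndufv1, Uqcrc2 (0.34), Cox6c (0.32), Ndufa7 (0.31) and Ndufb2 (0.43). With the probes of a gene averaged, Atp5j missed the threshold (0.22, adjusted p = 0.0642). Ndufa10 (0.27) missed it without any one pair (0.22 to 0.29, adjusted p = 0.0538 to 0.139).

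Counts of subunits past 1.5-fold between states were small and moved with most settings. For rejecting minus naive CD69+ cells the count of 2 became 0 without background correction, with the deposited normalized values and with an offset of 50, and 1 with averaged probes. For rejecting minus tolerant CD69+ cells, 1 became 2 with median scaling and without the detection filter. Median scaling gave 6 instead of 0 for early tolerant minus naive CD69+ cells, and single probes gave 1 instead of 0 for tolerant minus naive. In CD69- cells, early tolerant minus naive went from 1 to 0 without background correction and with the deposited values and to 2 with median scaling. Rejecting minus naive went from 1 to 0 with averaged probes and 2 with single probes. Rejecting minus tolerant went from 1 to 0 without background correction, with the deposited values and with an offset of 50, and to 2 without the detection filter. The cause of these changes was not tested. Differences of dim probes such as Ndufb11, Cox7a1 and Ndufab1 are limited by their small signal over background.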

Other observations

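Other mitochondrial genes were read in the same comparison of CD69+ with CD69- cells, in which 35.2% of all genes rose and 38.0% fell. Of 15 tested genes of the tricarboxylic acid cycle and the pyruvate dehydrogenase that feeds it, 8 rose and 2 fell (median 0.33). Fumarase, Fh1, rose by 1.55 (adjusted p = 1.87e-05) and Idh3a, of the NAD-linked isocitrate dehydrogenase, by 1.15 (adjusted p = 5.02e-05), while the NADP-linked Idh2 fell by 0.80 (adjusted p = 0.000773). Of 18 genes of protein import, 14 rose and 2 fell (median 0.65). Timm10, a chaperone of the intermembrane space, rose by 1.60 (adjusted p = 4.19e-05) and Hspa9, the import motor chaperone of the matrix, by 1.28 (adjusted p = 4.03e-05). All 5 tested genes of nucleotide, phosphate and outer-membrane transport rose (median 0.86), among them the adenine nucleotide carrier Slc25a5 (0.93, adjusted p = 0.000244).

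Of 18 genes for mitochondrial DNA transcription, replication and their nuclear control, 4 rose and 7 fell (median -0.10). Over all genes 35.2% rose and 38.0% fell (median -0.04), so the share that fell was close to that of all genes. Ppargc1b, a coactivator of mitochondrial genes, fell by 1.53 (adjusted p = 5.98e-05), the transcription factor Nrf1 by 0.95 (adjusted p = 0.000136) and the accessory subunit of the mitochondrial DNA polymerase, Polg2, by 1.37 (adjusted p = 8.18e-05). Top1mt, the mitochondrial topoisomerase, rose by 1.53 (adjusted p = 5.51e-05) and Gabpb1, a partner of the ETS factor Gabpa, by 0.99 (adjusted p = 0.000256). Tfam, which packages mitochondrial DNA, gave -0.08 (adjusted p = 0.467) and did not pass, and Ppargc1a was not detected on any array.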
